A study of Sus scrofa with 20 samples.

Results

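Subunits of the T cell receptor and molecules that act with it (CD3E, CD3G, CD247, LCK, CD8A and CD69) were measured in the ileal mucosa of suckling and weaned piglets. All probe sets with 1 of these symbols in the platform annotation were taken, 10 probe sets of 6 genes, out of 23999 probe sets tested and 6765 genes named. The T cell receptor is a surface complex in which an antigen-binding chain pair is held together with the CD3 chains and the zeta chain. CD3E and CD3G encode the CD3 epsilon and gamma chains, and CD247 encodes the zeta chain, whose cytoplasmic motifs carry the signal into the cell. LCK is the Src family kinase that phosphorylates these motifs. CD8A is the alpha chain of the CD8 coreceptor, which binds MHC class I and brings LCK to the receptor. CD69 is a surface lectin that lymphocytes display early after activation and that tissue-resident T cells keep. In the ileal mucosa, T cells lie in the epithelium, in the lamina propria and between the B cell follicles of the Peyer's patches. CD8A, LCK and CD247 are also found in natural killer cells, and CD69 is made by many activated leucocytes.

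The samples were scraped ileal mucosa of crossbred piglets (Landrace × Large white × Duroc), and each of the 20 arrays was hybridised with RNA of 1 piglet. Suckling piglets were sampled at 14, 21, 28 and 35 days of age (S14D, S21D, S28D and S35D, with 3, 4, 4 and 3 arrays). Piglets weaned at 21 days and given a commercial weaning diet were sampled at 28 and 35 days (21W28D and 21W35D, with 3 arrays each), thus 7 and 14 days after weaning. No genetic change or drug is named in the labels, and the sources used here do not say which piglets were littermates. Per the methods the litters came from few sows, so piglets of the same or of different groups may share a dam, while the fit takes the arrays as independent.

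Values are log2 units after gcRMA, with a floor of 2.08, and 41.6% of all values lie within 1 unit of it. Differences near the floor are compressed, and levels of different genes cannot be set against each other on an array. A group mean is given ± SD over its arrays. A member was called where limma, fitted to all 20 arrays, gave it an adjusted p under 0.05 (Benjamini-Hochberg, over 23999 probe sets).

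For S35D and 21W28D the labels may not hold. Over all probe sets, Pearson's r with the mean of 21W35D exceeded r with the mean of S28D in each of the 3 arrays labelled S35D, and the reverse held in 2 of the 3 arrays labelled 21W28D. S35D and 21W35D share an age, as do 21W28D and S28D, so these r values alone cannot tell an effect of age from exchanged labels. Such a match was also not particular to these groups. Of the 20 arrays, 13 had their highest r with the mean of a group other than their own, among them 21W35D replicate 1 (0.995 with S28D, 0.9896 with the other arrays of 21W35D). Between S28D and the arrays labelled S35D, limma called 6.54% of all probe sets. Between S28D and the arrays labelled 21W28D it called 0%. Whether the labels were exchanged was not tested. If these labels were exchanged, each value given for one group would belong to the other, and a difference of one from S21D, S28D or 21W35D would become that of the other. The groups S14D, S21D, S28D and 21W35D are not touched by this.

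Arrays also differed in marker genes of B cells, epithelium, smooth muscle and erythrocytes. The mean of 4 B cell genes (CD79B, BLNK, SPIB and CD40) was 11.33 to 12.35 in the arrays of S21D, S28D and 21W28D. It was 7.50 in S14D replicate 3, 7.74 in 21W35D replicate 2, 8.96 in S35D replicate 1 and 9.94 in S14D replicate 2. The mean of 11 epithelial genes was highest in S35D replicate 1, 21W35D replicate 2 and S14D replicate 3. The mean of 5 erythrocyte genes was 6.36 in S14D replicate 1 and 3.76 to 4.70 in the other arrays. This rested mainly on ALAS2 (7.8) and AHSP (7.78), which were at most 3.86 and 4.24 elsewhere. HBM was also highest in that array, at 3.13 against at most 2.69. HBB, the brightest of the 5 genes, lay there within its range of 10.33 to 11.43 in the other arrays. HBE1 was at 2.08 in all arrays. S35D replicate 3 had a smooth muscle mean of 10.31, against at most 9.04 elsewhere. In RNA of whole mucosa, fewer T cells and less RNA per T cell cannot be told apart, and the part of this mixture in any result below was not tested.

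Of the 10 probe sets, 7 gave a signal above the floor, at least 1 for each gene. CD3E (Entrez gene 397455), CD3G (494013), LCK (100233188), CD8A (396627) and CD69 (397165) had 1 such probe set each. CD247 (397302) had 2, which are called probe sets 1 and 2 below. The other probe sets stayed near the floor in every array. They were 2 of CD247, at 2.08 in all arrays and at 2.08 to 2.21, and 1 of LCK at 2.17 to 2.51, and none of them was called in any comparison. The CD69 probe set lay close to the floor. It reached 4 log2 units in 10 of 20 arrays and spanned 2.92 to 5.32. In the gene table of the Sscrofa11.1 assembly, CD3E and CD3G are neighbours with only CD3D between them, and CD8A lies next to CD8B, while CD247, CD69 and LCK lie apart on other chromosomes.

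**Figure D1:**
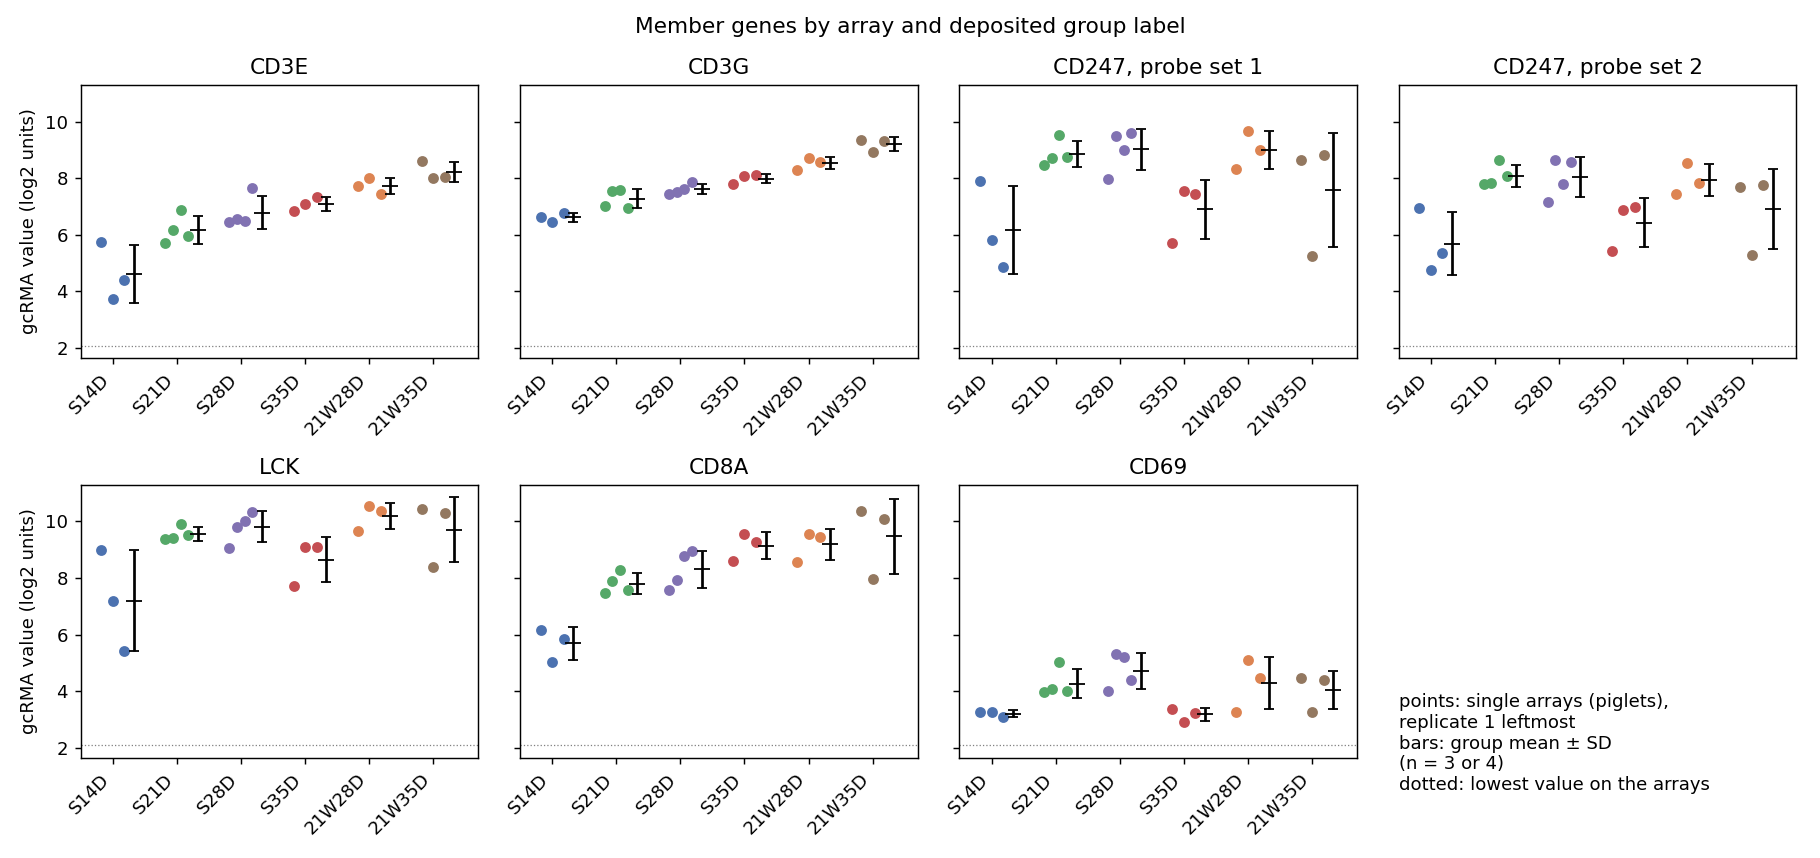
Log2 values after gcRMA (vertical axis) of the 7 probe sets above the floor in the 20 arrays, by deposited group label (horizontal axis), with each point an array and bars the group mean ± SD. CD3E, CD3G and CD8A had their lowest mean in S14D and their highest in 21W35D, whereas CD247, LCK and CD69 were low in S14D and also in the arrays labelled S35D.

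The CD3 chains followed the order S14D, S21D, S28D, S35D, 21W28D and 21W35D in their group means. CD3E, the epsilon chain, was 5.75, 3.72 and 4.39 in the 3 arrays of S14D and 5.72, 6.17, 6.86 and 5.96 in the 4 of S21D. It was 6.44, 6.56, 6.49 and 7.65 in S28D and 6.84, 7.08 and 7.35 in the arrays labelled S35D. In weaned piglets it was 7.73, 7.99 and 7.45 in the arrays labelled 21W28D and 8.61, 8.0 and 8.05 in 21W35D. The lowest array of 21W35D thus lay above every other array of the study, and S14D and S21D overlapped by a single array. CD3E means rose from 4.62 ± 1.04 (SD, n = 3) in S14D to 8.22 ± 0.34 (SD, n = 3) in 21W35D.

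CD3G, the gamma chain, had the smallest standard error in the fit among the 7 probe sets. Its values were 6.62, 6.46 and 6.77 in S14D and 7.02, 7.54, 7.58 and 6.95 in S21D. They were 7.44, 7.51, 7.63 and 7.87 in S28D and 7.79, 8.06 and 8.10 in the arrays labelled S35D. In the arrays labelled 21W28D they were 8.30, 8.73 and 8.56, and in 21W35D they were 9.36, 8.91 and 9.32. All arrays labelled as weaned were above all arrays labelled as suckling, and S14D, the arrays labelled 21W28D and 21W35D each stood clear of their neighbours in the order, while S21D, S28D and the arrays labelled S35D overlapped in sequence.

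CD8A, the coreceptor chain, kept the same order of means with more overlap. It was 6.17, 5.04 and 5.85 in S14D and 7.48, 7.88, 8.28 and 7.56 in S21D. It was 7.57, 7.93, 8.76 and 8.96 in S28D and 8.61, 9.54 and 9.27 in the arrays labelled S35D. The arrays labelled 21W28D had 8.55, 9.57 and 9.45, and 21W35D had 10.38, 7.95 and 10.09. S14D was below all other arrays. The values of 21W35D spread widely because its replicate 2 lay at 7.95, and beyond S14D no 2 neighbouring groups in the order were separated.

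The zeta chain did not follow this order. CD247 was 7.89, 5.81 and 4.85 in S14D and 8.47, 8.71, 9.53 and 8.76 in S21D on probe set 1. It was 7.98, 9.50, 9.0 and 9.59 in S28D and 5.71, 7.55 and 7.44 in the arrays labelled S35D. It was 8.34, 9.66 and 9.0 in the arrays labelled 21W28D and 8.65, 5.25 and 8.82 in 21W35D. The 3 arrays labelled S35D were therefore below all of S21D and S28D, and 1 array of 21W35D was as low. On probe set 2, CD247 had a mean of 5.69 ± 1.12 (SD, n = 3) in S14D and of 8.09 ± 0.39 (SD, n = 4) in S21D. For S28D the mean was 8.04 ± 0.70 (SD, n = 4), and for the arrays labelled S35D it was 6.43 ± 0.86 (SD, n = 3). Both probe sets of CD247 gave nearly the same profile over the arrays (Pearson r 0.97, n = 20).

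LCK, the kinase, resembled CD247. It was 8.98, 7.20 and 5.41 in S14D and 9.37, 9.42, 9.89 and 9.53 in S21D. It was 9.06, 9.81, 10.03 and 10.33 in S28D and 7.73, 9.11 and 9.10 in the arrays labelled S35D. It was 9.67, 10.54 and 10.36 in the arrays labelled 21W28D and 10.44, 8.38 and 10.30 in 21W35D. S14D spanned more than 3 log2 units, and replicate 1 of the arrays labelled S35D and replicate 2 of 21W35D were below every other array outside S14D. No neighbours in the order of LCK means passed the test.

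CD69, the activation and residency marker, was 3.27, 3.27 and 3.08 in S14D and 3.98, 4.06, 5.02 and 4.01 in S21D. It was 4.00, 5.32, 5.20 and 4.38 in S28D and 3.37, 2.92 and 3.23 in the arrays labelled S35D. It was 3.27, 5.11 and 4.48 in the arrays labelled 21W28D and 4.48, 3.27 and 4.39 in 21W35D. S14D and the arrays labelled S35D were below every array of S21D and S28D, and the weaned groups spread across both levels.

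Between 14 and 21 days of suckling, 5 of the 6 genes were higher at the later age. The comparison covers the last week before weaning, in which the age of the piglet is the labelled difference. CD8A was 2.11 log2 units higher in S21D (SE 0.53, 95% interval 0.97 to 3.25, limma adjusted p = 0.019) and LCK 2.35 (SE 0.69, 0.88 to 3.83, adjusted p = 0.0356). CD247 was higher by 2.68 (SE 0.86, 0.84 to 4.52, adjusted p = 0.0494) and 2.40 (SE 0.65, 1.01 to 3.79, adjusted p = 0.0254) on its 2 probe sets. CD3E was higher by 1.55 (SE 0.42, 0.65 to 2.46, adjusted p = 0.0254) and CD3G by 0.66 (SE 0.18, 0.28 to 1.03, adjusted p = 0.0244). CD69 differed by 1.06 (SE 0.44, 0.12 to 2.00, adjusted p = 0.122) and was not called, although its groups did not overlap. Thus 6 of 10 member probe sets were called higher and none lower, against 7.27% of all probe sets called higher and 14.9% called in either direction. The groups did not overlap for 6 members, all but CD3E of the 7 above the floor, and for 14.1% of all probe sets in this direction.

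The count of 6 rested on few arrays. It was 0 without S14D replicate 2, without S14D replicate 3 or without S21D replicate 3. It was 3 without S21D replicate 2 (CD3E, CD247 and CD8A) or without S21D replicate 4 (CD3E, CD3G and CD8A). With only S14D and S21D in the fit it was 1, CD8A. CD8A kept its call in 14 of 17 alternatives, and the differences without 1 array were 1.79 to 2.20 for CD8A where the call was lost and 1.46 for LCK without S14D replicate 3. Of 4 measured B cell genes, 2 were called higher in S21D as well, BLNK (1.14, SE 0.29, limma adjusted p = 0.0209) and SPIB (2.38, SE 0.69, adjusted p = 0.0331). Of 12 measured macrophage and dendritic cell genes, 7 reached 4 log2 units. Among these, AIF1, C1QA, C1QC and SPI1 were called higher. CD163 and TLR4 differed by 1.28 and 1.88 and MRC1 by -0.44, without a call. Also called higher were JCHAIN and PIM2 of 6 plasma cell genes. The others of that list were not called and did not share a direction. SDC1 and XBP1 differed by -1.04 and -0.39, FKBP11 and TNFRSF17 by 0.20 and 0.98. Of 9 measured smooth muscle genes, only ACTA2 was called, and it was lower in S21D.

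From 21 to 28 days no member probe set was called, where 0.00417% of all probe sets were. None reached an unadjusted p of 0.05 in limma either, and none was called by the methods' t-test. The differences of the 7 probe sets lay between -0.05 for probe set 2 of CD247 (95% interval -1.34 to 1.24) and 0.61 for CD3E (-0.23 to 1.44). CD3G differed by 0.34 (-0.01 to 0.69) and CD8A by 0.50 (-0.55 to 1.56). The intervals leave room for changes of more than 2-fold in all of the 7 except CD3G.

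Between S28D and the arrays labelled S35D the members parted. CD69 was lower by -1.55 log2 units (SE 0.44, 95% interval -2.49 to -0.61, limma adjusted p = 0.0497) and was the only one of 10 called, against 3.01% of all probe sets called lower and 6.54% called in either direction. CD247 differed by -2.12 (SE 0.86, adjusted p = 0.149) and -1.61 (SE 0.65, adjusted p = 0.148) on its probe sets, without overlap of the groups but short of the threshold. Such a separation, with the arrays labelled S35D lower, held for 3 members and for 13% of all probe sets. LCK differed by -1.16 (SE 0.69, adjusted p = 0.341). CD3E, CD3G and CD8A differed by 0.31, 0.37 and 0.84 in the other direction (adjusted p = 0.86, 0.224 and 0.386). The call of CD69 was lost without any 1 of S28D replicates 2, 3 and 4 or of the 3 arrays labelled S35D, with differences of -1.66 to -1.35 and adjusted p-values of 0.0727 to 0.164. Beside this, the B cell genes had a median difference of -1.82 with none of 4 called. Of 11 measured epithelial genes, CDH1, CDH17 and KRT18 were called higher.

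Against S21D, the arrays labelled S35D were higher in CD3G by 0.71 (SE 0.18, 95% interval 0.33 to 1.09, limma adjusted p = 0.0402), the only member called, against 2.25% of all probe sets called higher and 3.57% in either direction. CD8A differed by 1.34 (SE 0.53, adjusted p = 0.177), and CD247 by -1.97 and -1.66 and CD69 by -1.09 in the opposite direction (adjusted p = 0.218, 0.172 and 0.182). The groups were separated for CD3G and CD8A upwards, as for 9.85% of all probe sets, and for CD247, LCK and CD69 downwards, as for 13.8%. The call of CD3G was lost without S21D replicate 1 or 4 and without any 1 of the arrays labelled S35D (adjusted p of 0.0755 to 0.126, differences of 0.60 to 0.81).

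**Figure D2:**
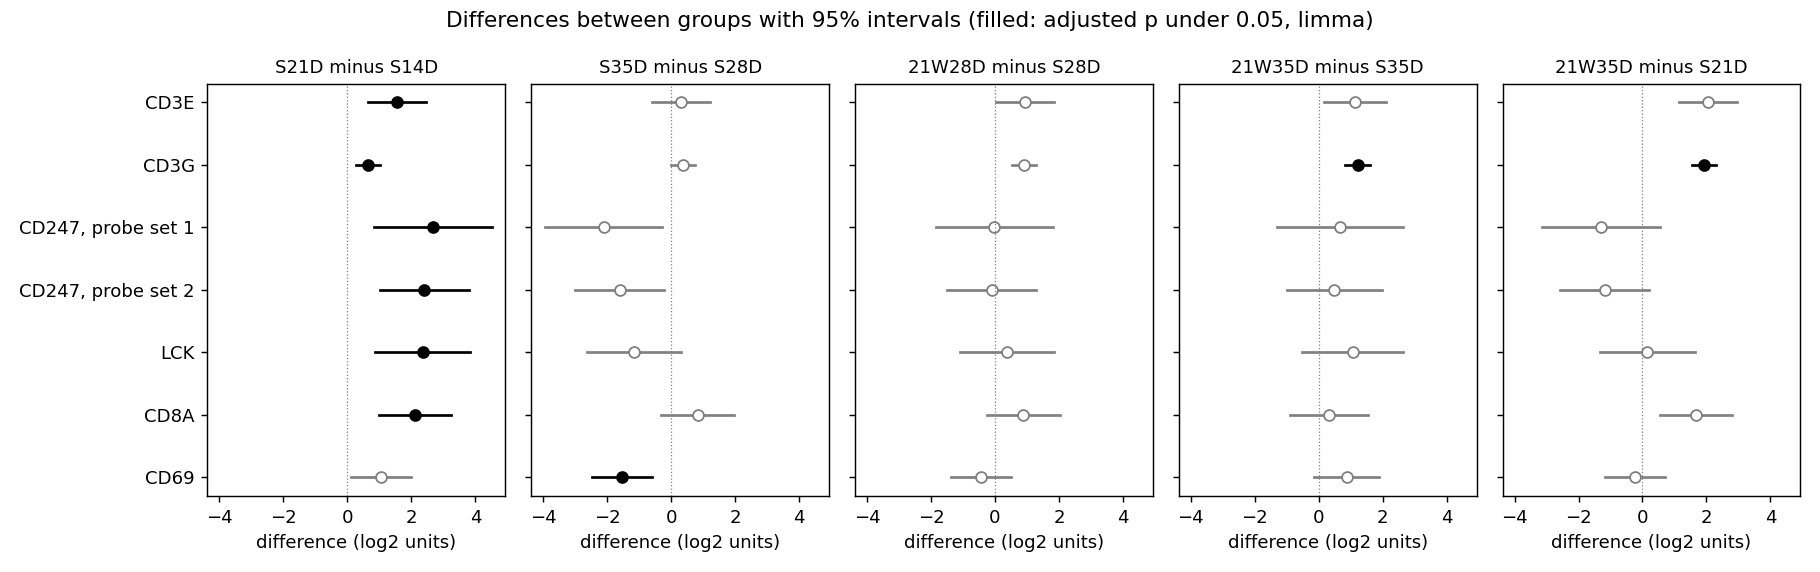
Log2 differences between groups (horizontal axis) of the 7 probe sets above the floor with their 95% intervals from the limma fit, for 5 comparisons. Filled points were called at an adjusted p under 0.05. CD3G was called in 3 of the 5, and its intervals are the narrowest.

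Over the 4 suckling ages together, an F test in limma called 6 of 10 member probe sets, where it called 20.6% of all probe sets. These were CD3G (adjusted p = 0.00135), CD8A (0.00447), CD3E (0.00613), probe set 2 of CD247 (0.0309), CD69 (0.0359) and LCK (0.0463). The range of the suckling means was 3.45 log2 units for CD8A, 2.47 for CD3E, 2.61 for LCK, 1.55 for CD69 and 1.37 for CD3G. The count fell to 3 without S14D replicate 2, S14D replicate 3 or S28D replicate 2. This F test and these ranges include the arrays labelled S35D. If the labels were exchanged, the arrays labelled 21W28D would take their place and both would change. For CD69, for example, the mean was 3.17 in the arrays labelled S35D and 4.29 in those labelled 21W28D.

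In the weaned groups, CD3G was the member with the lowest adjusted p-values. The comparisons of weaned piglets with S21D set them against piglets of the age at which they were weaned, and those with S28D and S35D set them against suckling piglets of their own age. 21W35D exceeded S21D in CD3G by 1.92 log2 units, or 3.80-fold (SE 0.18, 95% interval 1.55 to 2.30, limma adjusted p = 0.000141). This was the only member called, against 0.263% of all probe sets called higher and 0.296% called in either direction. Its call held in 15 of 17 alternatives with differences of 1.82 to 2.07. It was lost when only the groups compared were fitted (adjusted p = 0.0934) and in the methods' t-test after adjustment (0.115). CD3E differed by 2.05 (SE 0.42, adjusted p = 0.0659) and CD8A by 1.67 (SE 0.53, adjusted p = 0.251). CD247, LCK and CD69 differed by -1.29, 0.16 and -0.22 (adjusted p = 0.599, 1 and 1). Members separated from S21D were CD3E and CD3G upwards, as were 5.12% of all probe sets, and probe set 2 of CD247 downwards, as were 6.52%. Without 21W35D replicate 2, CD3G and CD8A were both called.

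At the age of 35 days, 21W35D exceeded the arrays labelled S35D in CD3G by 1.21 (SE 0.19, 95% interval 0.81 to 1.62, limma adjusted p = 0.0359), where 0.0292% of all probe sets were called higher and 0.0458% in either direction. CD3E differed by 1.13 (SE 0.45, adjusted p = 0.749). Both were free of overlap, as were 3.48% of all probe sets in this direction. The other 5 probe sets differed by 0.34 to 1.06 with adjusted p-values of 0.844 to 1. The call of CD3G was lost without replicate 1 of the arrays labelled S35D, 21W35D replicate 1 or 21W35D replicate 3 (adjusted p of 0.0942 to 0.135, differences of 1.12 to 1.15). It held in 7 of 15 alternatives. With only the groups compared in the limma fit the adjusted p was 0.816, and in the methods' t-test after adjustment it was 0.836.

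In the arrays labelled 21W28D no member was called against S21D or S28D, and limma called 0% of all probe sets in either comparison. Unadjusted p-values were under 0.05 for 3 and 2 of the 10 member probe sets, and the methods' t-test called 0 after adjustment. CD3G nevertheless lay 1.26 above S21D (SE 0.18, 95% interval 0.88 to 1.64, adjusted p = 0.0522) and 0.92 above S28D (SE 0.18, 0.54 to 1.30, adjusted p = 0.29). CD3E, CD3G and CD8A did not overlap with S21D, where 1.68% of all probe sets were separated in this way, and CD3G did not overlap with S28D, where 0.825% were. CD3G passed the threshold against S21D without S21D replicate 3 or without replicate 1 of the arrays labelled 21W28D, so that the count was then 1. CD3E was 1.55 above S21D (SE 0.42, adjusted p = 0.965). That difference equals in size the one called between S21D and S14D, and the adjusted p-values differ because the adjustment depends on how many other probe sets moved.

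Between the weaned groups, 0 of 10 members were called, against 0.0792% of all probe sets, and 1 had an unadjusted p under 0.05. CD3G was 0.67 higher in 21W35D (SE 0.19, 95% interval 0.26 to 1.07, adjusted p = 0.266). CD3E and CD3G did not overlap, as was the case for 4.52% of all probe sets in this direction. The difference between weaned and suckling piglets was not shown to differ between 28 and 35 days for any member, since the interaction contrast in limma had an adjusted p of 1 throughout, with 0% of all probe sets called. Its largest value was 1.31 for CD69 (SE 0.64, unadjusted p = 0.0612). Over all 6 groups, the F test called CD3G (adjusted p = 9.81e-06), CD3E (0.00128) and CD8A (0.00337), 3 of 10 member probe sets against 14.7% of all. LCK (0.0617), CD247 (0.0628 and 0.0917) and CD69 (0.0847) were not called. Without S14D replicate 1 this count was 6, and without 21W35D replicate 2 it was 7.

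The members differed in how closely they moved together over the arrays. Over 20 arrays, Pearson's r was 0.91 between CD3E and CD3G, 0.90 between CD3E and CD8A and 0.87 between CD3G and CD8A. On probe set 1 of CD247, r was 0.90 to LCK and 0.78 to CD69, but 0.24 to CD3G. On probe set 2 these were 0.85, 0.77 and 0.24. LCK lay between, with an r of 0.72 to CD8A, 0.70 to CD3E, 0.54 to CD3G and 0.67 to CD69, and CD247 had an r of 0.51 and 0.52 to CD8A on its probe sets. These arrays share their normalization and their mixture of cells, and r is given as a description. With group means taken off, CD247 and LCK still had an r of 0.93 on probe set 1 of CD247 and 0.81 on probe set 2. For CD3G and CD8A it was 0.80, while CD3E and CD3G fell to 0.56. CD3G and CD247 came to 0.55 and 0.61 on the probe sets of CD247. CD8A had an r of 0.81 and 0.83 to them in that case.

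**Figure D3:**
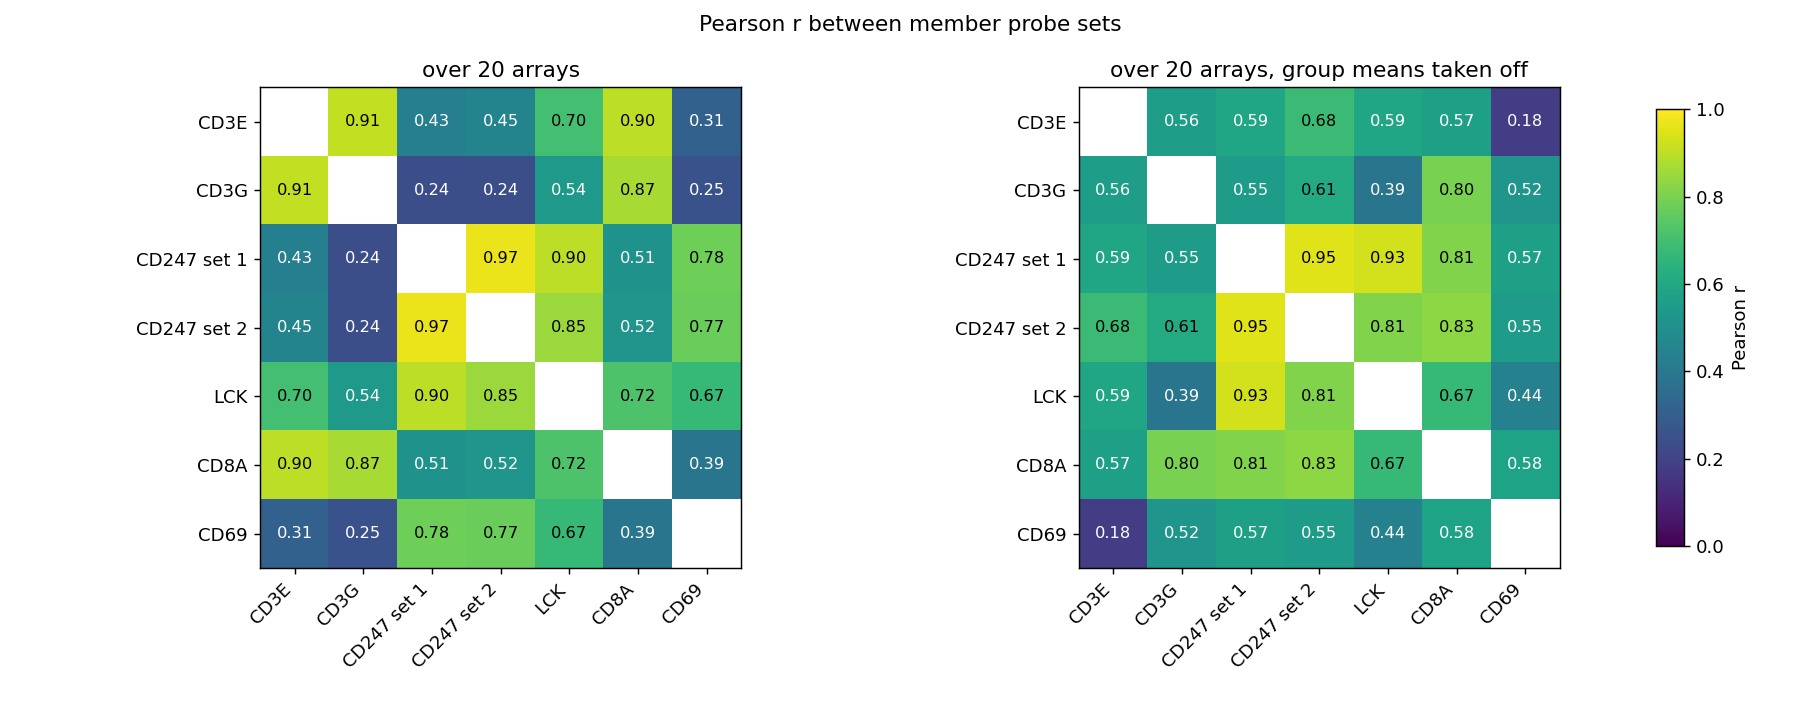
Pearson's r between the 7 member probe sets above the floor over 20 arrays (left) and over the same arrays with group means taken off (right), on a colour scale from 0 to 1. On the left, the 2 probe sets of CD247 are the closest (0.97), and CD3E, CD3G and CD8A are close to each other (0.87 to 0.91). LCK is close to CD247 (0.90 on probe set 1) and also to CD8A (0.72). The pair CD3G and CD247 (probe set 1) moves from 0.24 to 0.55.

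The difference between the gamma and zeta chains was also taken within each array. It is a contrast of log2 signals that shows unequal change between groups and no ratio of molecules, and it was chosen after the values were seen, so no test is given. CD3G minus CD247 (probe set 1) was -1.94 to -1.17 in S21D and -1.99 to -0.54 in S28D. It was 0.51 to 2.07 in the arrays labelled S35D, -0.92 to -0.05 in the arrays labelled 21W28D and 0.50 to 3.66 in 21W35D. S14D held both signs, with -1.28, 0.64 and 1.92.

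Low CD247 and LCK values coincided with low B cell values. The 4 arrays lowest in the B cell mean were also the 4 lowest in LCK and in both probe sets of CD247. They held 2 of the 4 lowest for CD3E, CD3G and CD8A and 1 for CD69. How many of all probe sets have the same 4 lowest arrays was not counted. In S14D replicate 3, CD79B, a chain of the B cell receptor, was at 3.45, LCK at 5.41 and CD247 at 4.85. In 21W35D replicate 2, CD79B was at 2.93, LCK at 8.38 and CD247 at 5.25, but CD3G was at 8.91, above every suckling array. In replicate 1 of the arrays labelled S35D, CD79B was at 6.88, LCK at 7.73 and CD247 at 5.71, with CD3G at 7.79. In the other arrays, CD79B lay between 9.34 and 12.29. Only 4 of 18 listed B cell genes were measured, and the part of B cell content in the CD247 and LCK values was not tested.

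**Figure D4:**
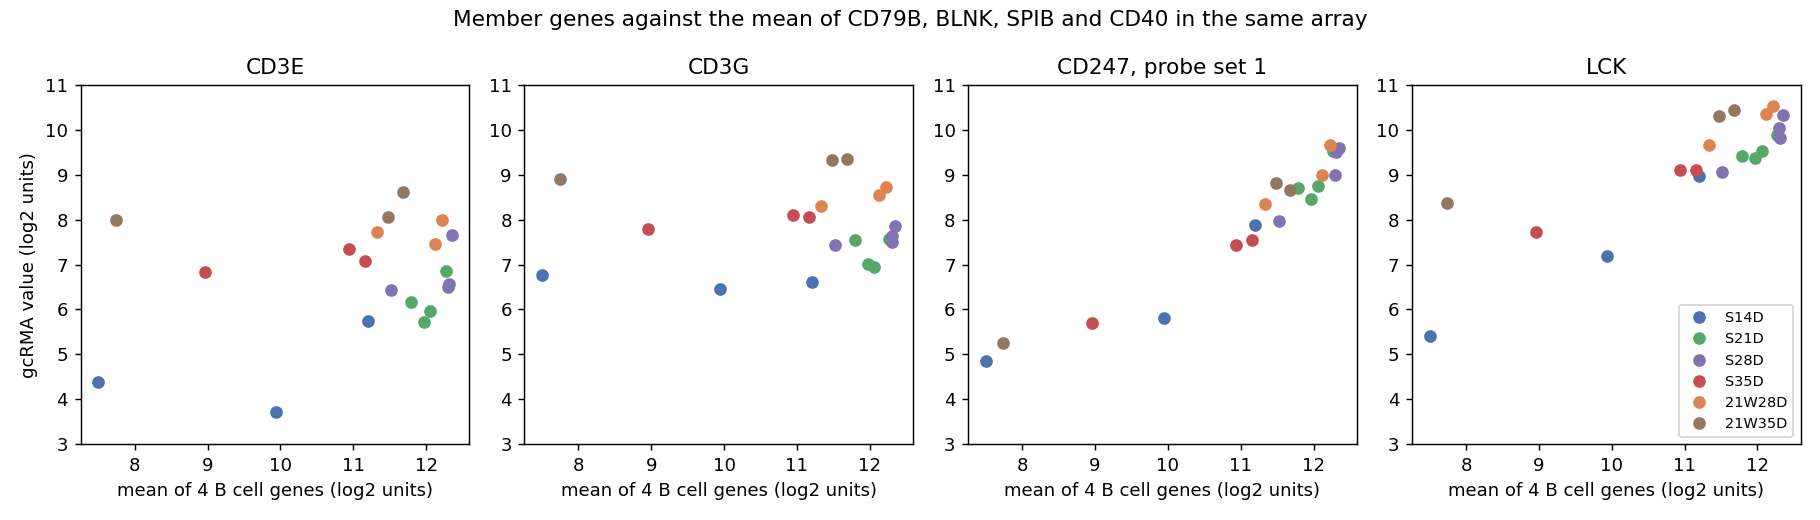
Log2 value of CD3E, CD3G, CD247 (probe set 1) or LCK (vertical axis) against the mean log2 value of 4 B cell genes (horizontal axis) in the 20 arrays, coloured by deposited group label. The 4 arrays with the lowest B cell means (7.50 to 9.94) are the 4 lowest of CD247 and LCK. The points of CD3G lie largely by group, with overlap between S21D and S28D and between S28D and S35D.

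Of the other subunits of the receptor, only CD3D was named on the array, since 4 of 14 listed genes were measured. CD3D, the delta chain, followed CD3E and CD3G, with means of 4.22, 4.67, 5.09, 5.49, 6.05 and 6.67 from S14D through S21D, S28D, S35D and 21W28D to 21W35D (six-group F test in limma, adjusted p = 0.0132). It was not called in any comparison of 2 groups (21W35D against S21D, 2.00, SE 0.42, adjusted p = 0.073). The constant chains of the antigen receptor were not measured here, so that alpha-beta and gamma-delta T cells were not separated.

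Of 18 coreceptors and costimulatory receptors, 7 were measured and 3 reached 4 log2 units. CD2, an adhesion receptor of T cells and natural killer cells, had means of 4.79, 6.27, 7.21, 7.62, 7.90 and 8.77 in the same order of groups (six-group adjusted p = 0.00347). CD8B, the beta chain that pairs with CD8A on conventional CD8 T cells, went from 2.46 in S14D to 5.53 in 21W35D (adjusted p = 0.0915). CD4, CD27, CTLA4 and CD40LG had group means of at most 2.16, at the floor, and give no information on helper T cells. CD8A was the only 1 of these genes called between S21D and S14D.

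Of the kinases, phosphatases and adaptors next to the receptor, 12 of 26 were measured. Between S14D and S21D, 3 were called, all higher in S21D: LCK, the exchange factor VAV1 (2.20, SE 0.67, limma adjusted p = 0.04) and the adaptor GRB2 (0.81, SE 0.22, adjusted p = 0.0258), which acts in most cell types. Of all probe sets 7.27% were called higher in that comparison and 14.9% in either direction. VAV1 had means of 8.78, 10.98, 11.12, 9.78, 11.01 and 9.97 and, like CD247, had its lower means in S14D, the arrays labelled S35D and 21W35D. The adaptors LCP2 (six-group adjusted p = 0.0185) and SH2D1A (0.0282) had their highest means in the groups labelled as weaned. None of the list was called in the other comparisons. The list had a median difference of 0.86 between S14D and S21D, beside 0 over all probe sets.

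Downstream of the receptor, 12 of 23 genes were measured and 8 reached 4 log2 units. STIM2, a calcium sensor of the endoplasmic reticulum, was higher in S21D than in S14D by 0.74 (SE 0.23, limma adjusted p = 0.0445). It was the only 1 of the 12 called in that comparison. Of all probe sets 7.27% were called higher there and 14.9% in either direction. FOS, an immediate early transcription factor that most cells can induce, in the arrays labelled S35D exceeded S28D by 1.87 (SE 0.32, adjusted p = 0.0102) and S21D by 1.69 (SE 0.32, adjusted p = 0.0166). It was also higher in 21W35D than in S21D by 2.14 (SE 0.32, adjusted p = 0.0136) and than in the arrays labelled 21W28D by 2.67 (SE 0.35, adjusted p = 0.0093). FOS was the only gene of the list called in each of these comparisons. Of all probe sets 6.54%, 3.57%, 0.296% and 0.0792% were called in them, in the order given. The mean of FOS was 9.10 to 9.74 in S14D, S21D, S28D and the arrays labelled 21W28D and at least 11.32 in the others, an order that CD69 did not share. RASGRP1, which activates Ras in T cells, had means of 6.58 in the arrays labelled S35D, 7.11 in 21W35D, 7.59 in S14D and up to 9.03 in S28D without a call.

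Among 10 measured activation genes of 18 listed, CD69 and ZFP36 were called. Between S28D and the arrays labelled S35D, 1 was called lower (CD69) and 1 higher (ZFP36), where 6.54% of all probe sets were called. Against S21D, only ZFP36 was called, in the arrays labelled S35D (3.57% of all probe sets) and in 21W35D (0.296%). ZFP36, which destabilises cytokine mRNA and is found in many cells, in the arrays labelled S35D exceeded S28D (0.56, SE 0.16, limma adjusted p = 0.0459) and S21D (0.74, SE 0.16, adjusted p = 0.0236). It was also higher in 21W35D than in S21D (0.94, SE 0.16, adjusted p = 0.0269). CD69 and ZFP36 thus moved in opposite directions between S28D and the arrays labelled S35D. IL2 and IL2RA had group means of 2.08 to 2.25, at the floor, and IFNG had means from 2.25 in S14D to 4.44 in 21W35D with no call.

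Of the cytotoxic lymphocyte genes, 11 of 26 were measured. FCER1G (1.38, SE 0.24, limma adjusted p = 0.00226) and TYROBP (1.12, SE 0.16, adjusted p = 0.000593) were higher in S21D than in S14D, against 7.27% of all probe sets called higher. Both are adaptors that myeloid cells also use. GZMH, a granzyme, in the arrays labelled S35D exceeded S28D by 2.43 (SE 0.58, adjusted p = 0.029) and S21D by 2.39 (SE 0.58, adjusted p = 0.0389). In these comparisons 6.54% and 3.57% of all probe sets were called. Between 21W35D and S21D, 2 of the 11 were called, both higher in 21W35D, and the median difference of the list was 0.65. Of all probe sets 0.263% were called higher there and 0.296% in either direction. KLRK1, the NKG2D receptor, was higher in 21W35D than in S21D by 2.24 (SE 0.32, limma adjusted p = 0.0084). FCGR3A, an Fc receptor of natural killer cells and macrophages, was higher than in S21D both in the arrays labelled S35D (1.59, SE 0.31, adjusted p = 0.0182) and in 21W35D (1.78, SE 0.31, adjusted p = 0.033). CCL5, a chemokine of effector lymphocytes, had means of 7.95 in S14D and 10.69 in 21W35D (against S21D, 2.19, SE 0.43, adjusted p = 0.0504).

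The homing list had 7 of 18 genes measured and 2 called between S14D and S21D, both higher in S21D, against 7.27% of all probe sets called higher. CCR9, the chemokine receptor that directs lymphocytes to the small intestine, was 2.12 higher in S21D (SE 0.35, limma adjusted p = 0.00165), with means of 4.45 in S14D and 8.02 in 21W35D. ITGB2, the beta chain of the leucocyte integrins, was 2.25 higher (SE 0.58, adjusted p = 0.0213). CXCR4 had its lowest means in 21W35D (10.82), S14D (10.90) and the arrays labelled S35D (11.31) without a call. None of the 7 measured T cell transcription factors was called in a comparison of 2 groups. FOXP3 and KLF2 were at the floor.

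**Figure D5:**
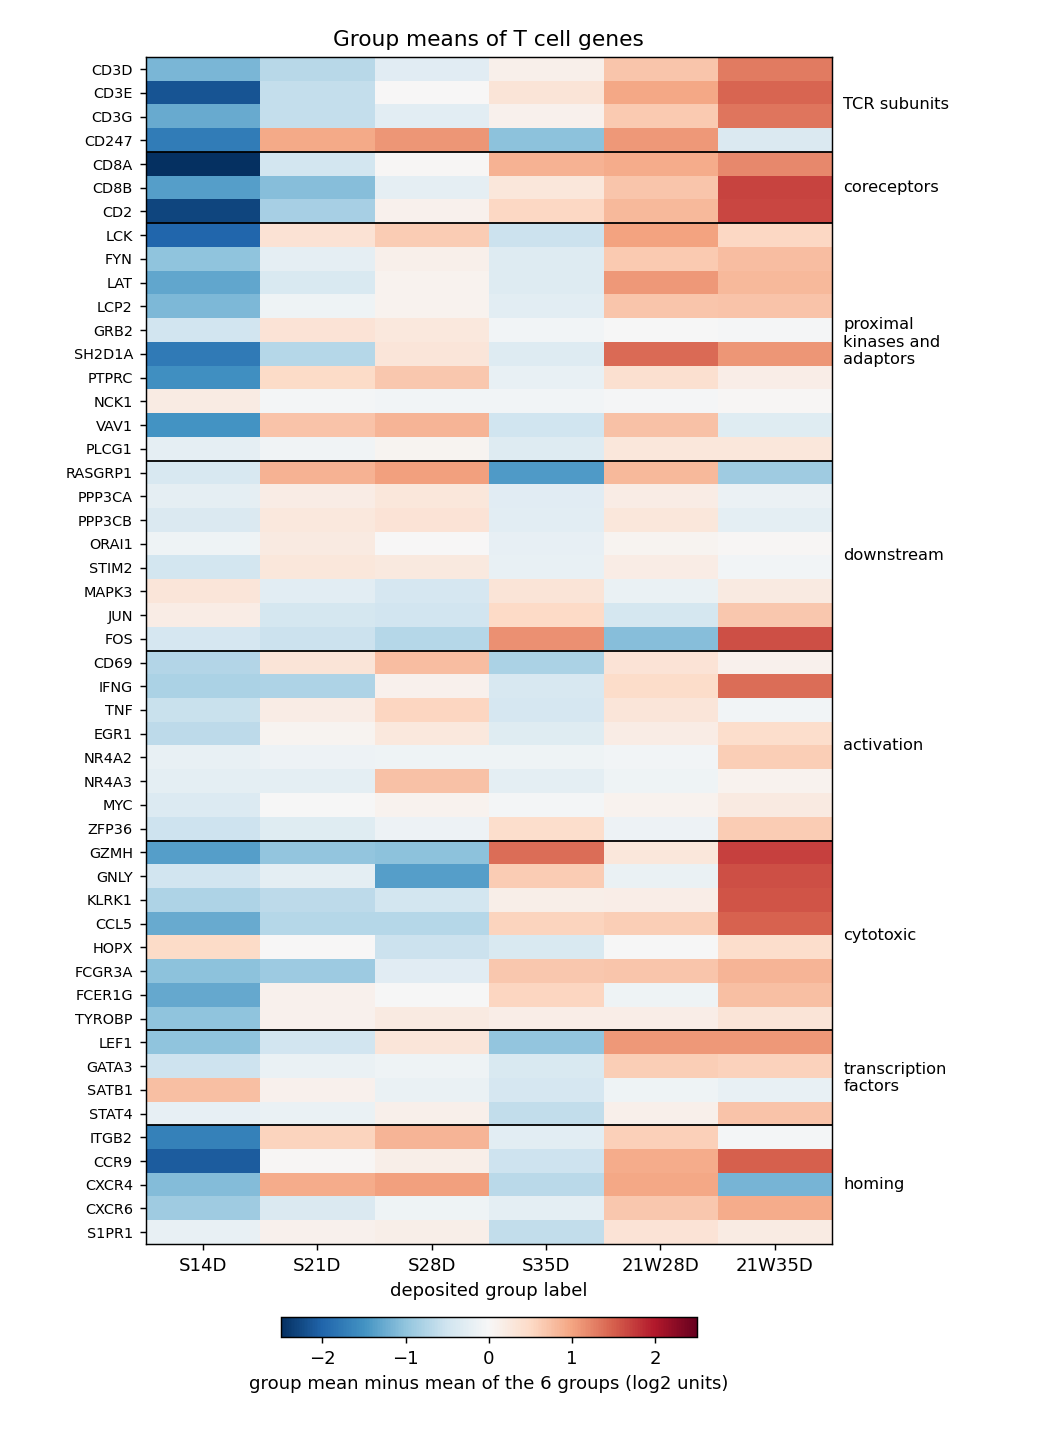
Group means of the 50 genes of the 8 T cell lists that reach 4 log2 units in some array, each as the difference from the mean of its 6 group means (colour, in log2 units), with groups by deposited label in columns and genes by list in rows. CD3D, CD3E, CD3G, CD8A and CD2 go from blue in S14D to red in 21W35D, and CD247, VAV1, RASGRP1 and CXCR4 are blue in S14D, S35D and 21W35D.

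The genes whose values were most like those of the members were taken from 6344 probe sets with 1 symbol that reach 5 log2 units in at least 3 arrays. Likeness is Pearson's r over 20 arrays, as a description. To the mean profile of the 6 genes, the 10 most alike were LCP2 (0.929), PARP8, ARRB2, FYN, SLA-6, TNFAIP8L2, LY96, RPS6KA1, SH2D1A and CAPG (0.915). For CD3E they were CD2 (0.929), CD3G (0.915) and LOC100621559 (0.905), and for CD3G they were CD3E, CD3D (0.911) and CD2 (0.906). For CD8A they were SLA-6 (0.934), a nonclassical MHC class I gene, CD2 (0.909) and CD3E (0.904). For CD247 they were FHOD1 (0.984), RNF44 (0.982) and SH2D3C (0.982), and for LCK they were JAK3 (0.968), ARRB2 (0.961) and ACP5 (0.961). CD69 was most like PUS3 (0.930), GEMIN5 (0.921) and RILPL2 (0.913). No CD3 chain was among these 3 genes for CD247 or LCK. With group means taken off, most of the names were others. The 3 most alike were then SART1 (0.854), FAU and CSNK2B for CD3E, GTF2H5 (0.849), COMMD1 and MSS51 for CD3G, and MADCAM1 (0.926), ARPC3 and DBI for CD8A. They were RNF44 (0.978), FHOD1 and WDR91 for CD247, HMCES (0.980), ARHGDIB and MCM5 for LCK, and EAF1 (0.936), MBIP and PUS3 for CD69. RNF44 and FHOD1 for CD247 and PUS3 for CD69 were thus the only names shared by both lists, and the mean profile was most like PIP4K2A (0.976) and CHTOP (0.976).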

How the data were processed

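Signals of 20 Affymetrix GeneChip Porcine Genome Arrays were normalized by the authors with gcRMA (R, Bioconductor) and put on a log scale. GCOS 1.2 and GCRMA stand in the submitters' processing notes. The deposited values were used as log2 values after background correction by probe sequence, quantile normalization and summary per probe set. Of 24123 probe sets, 124 controls were left out. Symbols came from the platform annotation, in which 10069 tested probe sets have 1 symbol, 198 several and 13732 none. Array medians were 5.07 to 5.34, and precision is limited by the number of arrays, 3 or 4 for each group.

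limma 3.58.1 in R 4.3.3 (lmFit and eBayes) was fitted to the 20 arrays with a mean for each group. Its p-values were adjusted by Benjamini-Hochberg over 23999 probe sets. The fit was tested on simulated data. The members, lists and tests were chosen with earlier results of these data known. Genes of a list were represented by their brightest probe set. All member probe sets are named, with up to 4 called genes per list and comparison and the genes most like the members, and uncalled list genes were named after their values were seen. Marker lists of B cells, plasma cells, macrophages, epithelium, smooth muscle and erythrocytes were read beside the members.

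The alternatives were a dim filter (4 log2 units in 3 arrays), only the groups compared, the replicate block, robust variances with a trend on intensity, quantile normalization again, centring on the median, 1 probe set per gene, the methods' t-test, each array left out and, chosen after seeing the data, a fit without the arrays labelled S35D and 21W28D. Python 3.11.15 with matplotlib 3.10.9 drew the figures.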

Additional observations from a re-analysis of the deposited data

Results flagged for a closer look

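In S28D, CD3E of replicate 4 was at 7.65, apart from the other 3 arrays at 6.44 to 6.56, so that its gap to the nearest array was 0.905 of the range of the group. In S21D, CD69 of replicate 3 was at 5.02, apart from the other 3 arrays at 3.98 to 4.06, with a gap of 0.928 of the range. In all, 14 sets of 4 values, from member probe sets in S21D and S28D, were looked at in this way, and 2 stood out. For a single set, chance gives such a gap in about 1 of 20. The 14 sets share the same piglets and their probe sets are correlated, so 2 of 14 cannot be set against that rate. The cause of either value was not tested.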

How the results depend on the processing

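No difference of a called member changed its direction under any alternative. With dim probe sets left out, the called members were 1 for 21W28D against S21D, 2 for 21W35D against S21D and 7 over the 6 groups, and the called genes of the 8 T cell lists were 9 for S35D against S28D (4 as reported), 1 for 21W28D against S21D and 10 for 21W35D against S21D (5 as reported). With only the groups compared in the fit, 1 member was called for S21D against S14D and 0 for S35D against S28D, S35D against S21D, 21W35D against S21D and 21W35D against S35D. With an intensity trend and robust variance, 0 were called for S35D against S28D. Centring each array on its median, which moved the median of all differences by at most 0.08, gave 1 for 21W28D against S21D (and 1 list gene), 2 for 21W35D against S21D, 0 for 21W35D against S35D (and 0 list genes) and 5 over the 6 groups. Quantile normalization again gave 0 for S35D against S28D, 2 for 21W35D against S21D and 0 for 21W35D against S35D (and 0 list genes). With 1 probe set per named gene, 1 was called for 21W28D against S21D. The methods' t-test after adjustment called 1 member for S21D against S14D and 0 in the other comparisons. Unadjusted with at least a 2-fold difference, it called 6 for S21D against S14D, 3 for S35D against S28D, 4 for S35D against S21D, 3 for 21W28D against S21D and 2 each for 21W35D against S21D and S35D. Without the arrays labelled S35D and 21W28D in the fit, an alternative chosen after seeing the data, 3 were called for S21D against S14D. The causes were not tested.

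Leaving out 1 array at a time gave 0 to 6 called members for S21D against S14D, 0 to 1 for S35D against S28D, S35D against S21D, 21W28D against S21D and 21W35D against S35D, 1 to 2 for 21W35D against S21D, 3 to 7 over the suckling ages and 3 to 7 over the 6 groups. It gave 0 throughout for S28D against S21D, 21W28D against S28D and 21W35D against 21W28D.

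No pairing of the arrays by replicate number was seen. Deviations from the group means were correlated between arrays that share a number in 46 pairs, with r over 0.1 in 18, under -0.1 in 19 and a median of 0.04. With the replicate block, 2 members (CD3G and CD8A) were called for S21D against S14D, 0 for S35D against S28D, S35D against S21D and 21W35D against S35D, and 3 over the suckling ages. CD69 lay near the floor, where differences are compressed.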
